A study of Mus musculus with 9 samples.

Results

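The expression of 42 genes of epithelial junctions and of the factors that regulate them was read in 9 RNA-seq libraries of mouse embryonic fibroblasts. The members were taken by gene name from 54986 gene IDs, and each of the 42 names matched 1 gene ID. They fall into 13 desmosome genes, 15 genes of tight junctions, apical polarity and adhesion, 4 membrane proteases and protease inhibitors, and 10 genes of epithelial transcription, splicing and trafficking. The fibroblasts were primary cells from C57BL/6 mice. All 3 groups of 3 libraries carry the label D4-OSKM-2ndMEFs, so the OSKM reprogramming factors named in it are shared by the controls. The groups were control, overexpression of Zscan4f and overexpression of Zscan4f3A, which is a variant of Zscan4f by its label. Control titles name no overexpressed gene and no empty vector, and the sources used here give neither the promoter that drove the overexpression nor the time since its start. Nothing states that the libraries came from separate cultures, so p-values measure only the spread among these libraries, part of which may be technical. Estimated aligned sequence was 6.6 to 8.39 gigabases in 8 libraries and 3.31 in Zscan4f3A replicate 3. Zscan4f itself (a zinc finger gene with a SCAN domain) stood at 570, 565 and 558 TPM where it was overexpressed, at 827, 836 and 654 where Zscan4f3A was, and at 0.3302, 0 and 0.9597 in control. Its reads could be shared with near-identical genes of the Zscan4 cluster. TPM (a scaled share of transcripts) is a level per length of transcript, so TPM of different genes may be set beside each other.

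Desmosomes are buttons between cells in which cadherins (desmogleins and desmocollins) bind across the gap, plakoglobin and plakophilins hold their tails, and desmoplakin ties the plaque to keratin filaments. Tight junctions seal the apical border of an epithelium with claudins, occludin and JAM proteins, which ZO proteins and cingulin link to the actin cytoskeleton. The membrane protease matriptase and its partner prostasin mature surface proteins of epithelia and are held in check by the Kunitz inhibitors HAI-1 and HAI-2. Grainyhead-like, Ovol, Elf3 and p63 factors drive such genes and Esrp proteins splice them, while Snail, Zeb and Twist factors repress them. Fibroblasts keep most of this set low, and a shift from mesenchymal to epithelial expression is a known early step when OSKM factors reprogram fibroblasts.

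With Zscan4f overexpression 21 of the 42 genes rose against control and 1, Cldn1, fell. The rises ran through every role: 10 of 13 desmosome genes, 6 of 15 tight junction and adhesion genes, 3 of 4 proteases and inhibitors and 2 of 10 regulators. These counts include genes that entered the test only with the help of the Zscan4f libraries, named below. Epcam rose most on the log2(TPM + 1) scale, by 1.68, and Dsg2 next, by 1.51. A gene was called here at a Benjamini-Hochberg adjusted p under 0.05 in limma over all 15837 genes tested, of which 8.74% were called higher and 9.71% lower. Of the 42 members 29 were tested. The members and the further gene lists were chosen with earlier results of these data known. An excess over these shares is therefore no independent evidence. All fold changes below are differences in log2(TPM + 1), which understates the change of genes near or under 1 TPM. RNA was taken from whole cultures, so more cells that express a gene and more RNA per cell cannot be told apart.

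The test took in genes with at least 1 TPM in at least 3 libraries, and 29 of the 42 members passed. Of these, 7 (Dsg2, Pkp3, Cldn4, Tjp3, Crb3, Spint1 and Elf3) passed only with the help of the Zscan4f libraries, and all but Tjp3 were among the genes that rose. With the same requirement placed on the 6 control and Zscan4f3A libraries alone, a choice made after the data were seen, 22 members passed, of which 15 rose and 1 fell (by role, 8 of 10 desmosome genes, 4 of 7 tight junction and adhesion genes, 2 of 2 proteases and inhibitors and 1 of 3 regulators rose), against 8.57% and 10% of all genes. Without any filter, 23 of the 42 members were called higher and 1 lower, against 3.42% and 3.93% of 33314 genes, and their median difference was 0.41 against 0 over those genes. For 29 of the 42 members each Zscan4f library lay above each control library, and for 2 (Cldn1 and Grhl1) below, where 10.8% and 11.2% of 33314 genes did so. Summed over all 42 members, the level was 746 ± 2.43 TPM in the controls, 969.6 ± 4.18 with Zscan4f and 772 ± 12.6 with Zscan4f3A (SD, n = 3 each).

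The promoters of 6 members are shown as examples: Epcam, Grhl3, Spint2 and Cldn4 rose with Zscan4f, Cldn1 fell, and Cldn3, the neighbour of Cldn4, was not called. Each line gives the 250 bases before the RefSeq start of the gene, on the gene's own strand of GRCm38.p6. Matches to the E-box CACCTG or its reverse complement CAGGTG are in capitals. For Spint2, Grhl3 and Cldn1 the RefSeq start differs from the gene bounds given with their levels, and distances are from the RefSeq start. This hexamer is the known target of Snail and Zeb repressors, best described in the promoter of the E-cadherin gene. The windows are chr17:87635729-87635978 (plus strand) for Epcam, chr4:135573633-135573882 (minus strand) for Grhl3 and chr7:29281978-29282227 (minus strand) for Spint2. The claudin windows are chr5:134946935-134947184 (minus strand) for Cldn4, chr5:134985964-134986213 (plus strand) for Cldn3 and chr16:26371840-26372089 (minus strand) for Cldn1.
Epcam: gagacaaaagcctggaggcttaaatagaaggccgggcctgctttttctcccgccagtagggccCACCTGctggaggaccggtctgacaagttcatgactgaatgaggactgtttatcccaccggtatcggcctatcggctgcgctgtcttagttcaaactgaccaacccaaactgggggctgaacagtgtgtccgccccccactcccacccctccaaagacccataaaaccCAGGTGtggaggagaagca
Grhl3: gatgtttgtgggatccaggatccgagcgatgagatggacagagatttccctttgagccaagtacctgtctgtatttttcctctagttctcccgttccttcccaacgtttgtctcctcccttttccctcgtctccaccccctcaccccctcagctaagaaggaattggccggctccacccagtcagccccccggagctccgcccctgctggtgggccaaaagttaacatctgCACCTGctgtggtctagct
Spint2: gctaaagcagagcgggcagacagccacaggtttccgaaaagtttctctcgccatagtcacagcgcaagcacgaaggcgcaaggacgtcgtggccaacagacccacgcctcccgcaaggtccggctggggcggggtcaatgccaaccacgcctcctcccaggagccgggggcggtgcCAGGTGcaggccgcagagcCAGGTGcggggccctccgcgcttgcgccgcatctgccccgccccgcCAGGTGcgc
Cldn4: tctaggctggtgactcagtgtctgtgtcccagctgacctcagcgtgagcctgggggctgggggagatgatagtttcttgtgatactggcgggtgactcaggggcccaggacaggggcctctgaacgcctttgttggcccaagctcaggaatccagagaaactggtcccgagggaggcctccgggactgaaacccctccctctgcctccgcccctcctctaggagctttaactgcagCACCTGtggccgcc
Cldn3: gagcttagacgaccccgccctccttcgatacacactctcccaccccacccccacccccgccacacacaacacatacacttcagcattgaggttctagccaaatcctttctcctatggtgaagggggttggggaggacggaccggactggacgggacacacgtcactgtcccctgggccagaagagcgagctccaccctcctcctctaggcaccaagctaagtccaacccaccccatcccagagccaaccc
Cldn1: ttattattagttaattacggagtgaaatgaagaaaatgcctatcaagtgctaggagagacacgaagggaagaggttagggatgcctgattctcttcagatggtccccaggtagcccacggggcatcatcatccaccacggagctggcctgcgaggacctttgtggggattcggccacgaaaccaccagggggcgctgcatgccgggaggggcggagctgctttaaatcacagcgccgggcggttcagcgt

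Epcam held 2 matches, the nearer one beginning 19 bases before the start, and Spint2 held 3. Grhl3 and Cldn4 held 1 each, beginning 19 and 14 bases before the start, and Cldn3 and Cldn1 held 0. RefSeq promoters were found for 24 of the 42 members, and 15 of these 24 genes had a match on either strand in at least 1 of their windows. Among all 27025 genes with such a window the share was 19.4%, against 62.5% of the members. The E-box did not part the genes that rose from the others: it was present in 7 of 11 members called higher and in 8 of the other 13. The grainyhead site AACCNGTT (reverse complement AACNGGTT), which with T for N shares most letters of the E-box without holding a whole one, was found in 2 of 24 members (Cgn and Rab25), 8.33%, and in 2.0% of all genes. A match describes letters in these windows and no binding was measured.

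**Figure D1:**
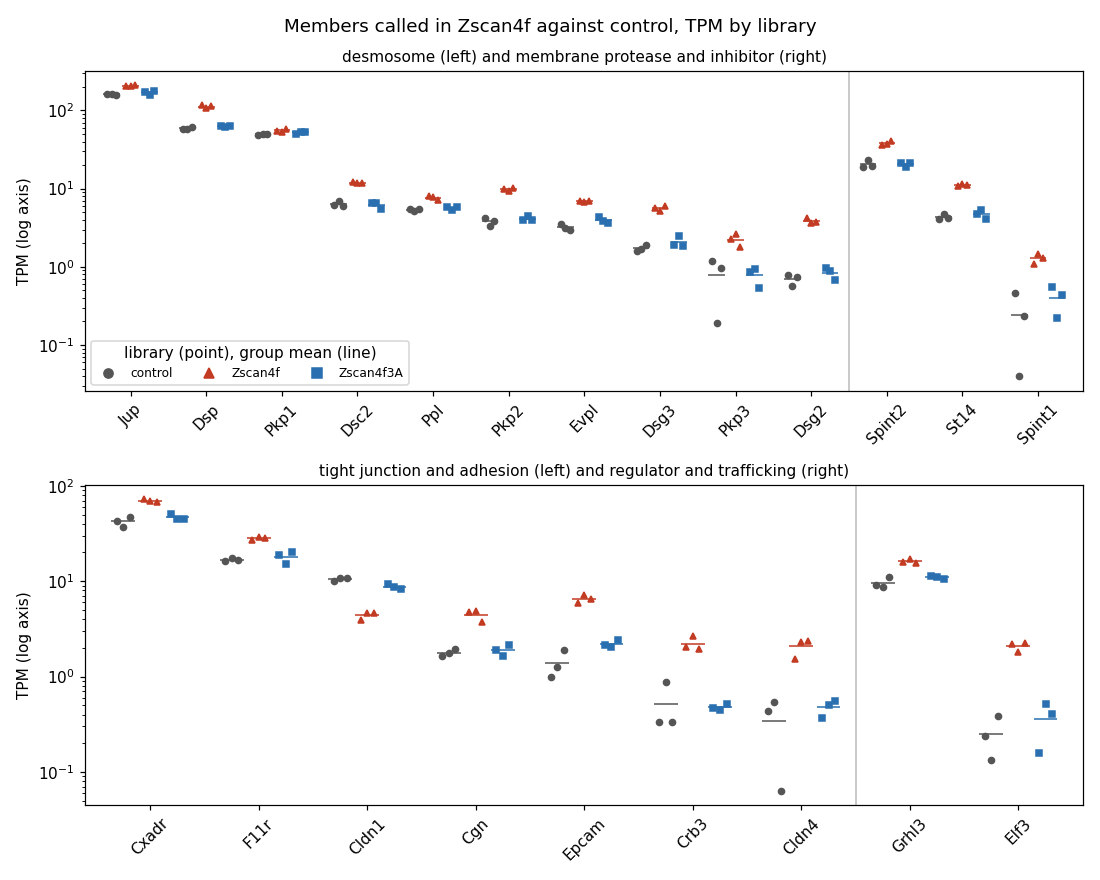
TPM (log axis) of the 22 members called in Zscan4f against control, in each of the 9 libraries; points are libraries (circles control, triangles Zscan4f, squares Zscan4f3A) and short lines are group means. In 21 genes the 3 Zscan4f libraries sit above the 3 control libraries, and in Cldn1 they sit below.

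Of the 13 desmosome genes 12 passed the filter, 10 rose with Zscan4f, 0 fell, and Pkp4 and Perp were not called. Dsp (ENSMUSG00000054889.10, chromosome 13, 38151294 to 38198577), which encodes desmoplakin, stood at 57.6, 58.2 and 60.9 TPM in the control libraries, at 117, 107 and 113 with Zscan4f and at 63.7, 61.2 and 62.9 with Zscan4f3A. The 3 Zscan4f libraries lay far above the other 6, with a difference of 0.92 from control (SE 0.05, adjusted p = 6.4e-06) and of 0.83 from Zscan4f3A (SE 0.05, adjusted p = 1.7e-05). Jup (ENSMUSG00000001552.14, chromosome 11, 100368958 to 100397763), which encodes plakoglobin, the plaque protein shared by desmosomes and adherens junctions, was the most abundant gene of the role that rose: it stood at 163, 163 and 157 TPM in the control libraries, at 204, 205 and 209.6 with Zscan4f and at 172, 158 and 179.8 with Zscan4f3A. No library of the other groups reached the Zscan4f libraries, with a difference of 0.36 from control (SE 0.05, adjusted p = 0.0012) and of 0.28 from Zscan4f3A (SE 0.05, adjusted p = 0.0052). Both genes were thus already well expressed in the control cultures, which also carry the OSKM label.

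The desmosomal cadherins started from lower levels, and 3 of the 4 members rose. Dsg2 (ENSMUSG00000044393.15, chromosome 18, 20558074 to 20604521), the desmoglein found in all desmosome-bearing tissues, stood at 0.789, 0.575 and 0.742 TPM in the control libraries, at 4.16, 3.66 and 3.69 with Zscan4f and at 0.962, 0.877 and 0.6801 with Zscan4f3A. No control or Zscan4f3A library reached 1 TPM while all Zscan4f libraries were above 3 TPM, with a difference of 1.51 from control (SE 0.12, adjusted p = 8.3e-05) and of 1.40 from Zscan4f3A (SE 0.12, adjusted p = 2.0e-04). Dsg2 thus passed the filter only through the Zscan4f libraries. Dsg3 (ENSMUSG00000056632.7, chromosome 18, 20510304 to 20541310), a desmoglein of stratified epithelia, stood at 1.58, 1.68 and 1.91 TPM in the control libraries, at 5.74, 5.21 and 6.02 with Zscan4f and at 1.897, 2.51 and 1.83 with Zscan4f3A. Its Zscan4f libraries were apart from both other groups, with a difference of 1.29 from control (SE 0.12, adjusted p = 1.7e-04) and of 1.12 from Zscan4f3A (SE 0.12, adjusted p = 5.5e-04). Dsc2 (ENSMUSG00000024331.11, chromosome 18, 20030633 to 20059554), the widely expressed desmocollin, stood at 6.098, 6.93 and 5.92 TPM in the control libraries, at 12.1, 11.9 and 11.7 with Zscan4f and at 6.55, 6.63 and 5.42 with Zscan4f3A. Its Zscan4f libraries lay close to each other and above the rest, with a difference of 0.82 from control (SE 0.09, adjusted p = 4.6e-04) and of 0.85 from Zscan4f3A (SE 0.09, adjusted p = 6.0e-04). Dsc3, the desmocollin of stratified epithelia, stayed at or below 0.314 TPM in all libraries.

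These 4 cadherins lie in 1 cluster of 9 desmoglein and desmocollin genes that spans 643.6 kilobases of chromosome 18. Along the chromosome the order is Dsc3, Dsc2, Dsc1, Dsg1c, Dsg1a, Dsg1b, Dsg4, Dsg3 and Dsg2. The genes with signal were interspersed with genes without it: Dsc2, Dsg1b, Dsg3 and Dsg2 rose, and Dsc3, Dsc1, Dsg1c, Dsg1a and Dsg4 stayed under 0.4 TPM in every library. Dsg1b, which is in the list of further desmosome genes and encodes a desmoglein 1, stood at 1.65, 1.76 and 1.42 TPM in the control libraries, at 6.11, 5.65 and 6.18 with Zscan4f and at 1.96, 2.41 and 1.84 with Zscan4f3A. Here too the Zscan4f libraries were the 3 highest of 9, with a difference of 1.42 from control (SE 0.11, adjusted p = 6.8e-05) and of 1.19 from Zscan4f3A (SE 0.11, adjusted p = 2.7e-04). The summed level of the 4 member cadherins was 8.95 ± 0.3804 TPM in the controls, 21.5 ± 0.617 with Zscan4f and 9.23 ± 1.16 with Zscan4f3A, where Dsc2 made up most of the sum in each group. Sequences of Dsg1a, Dsg1b and Dsg1c are closely related, so reads could have been divided among them.

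**Figure D2:**
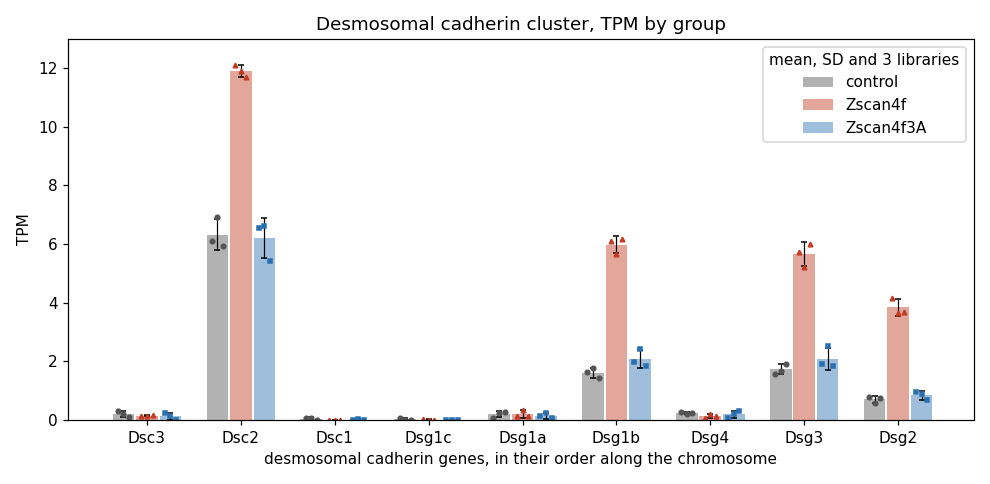
TPM of the 9 desmosomal cadherin genes in their order along the chromosome; bars are group means, whiskers the SD and points the 3 libraries of control, Zscan4f and Zscan4f3A. Dsc2, Dsg1b, Dsg3 and Dsg2 are higher with Zscan4f, with means of 11.9, 5.98, 5.65 and 3.84 TPM, and the other 5 genes are near 0 in all groups.

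The 4 plakophilins, armadillo proteins that cluster the cadherins, did not move alike. Pkp2 (ENSMUSG00000041957.15, chromosome 16, 16213318 to 16272712), the plakophilin of simple epithelia and heart, stood at 4.198, 3.34 and 3.87 TPM in the control libraries, at 9.93, 9.29 and 10.04 with Zscan4f and at 3.93, 4.47 and 3.97 with Zscan4f3A. Each Zscan4f library was above all 6 others, with a difference of 1.17 from control (SE 0.09, adjusted p = 8.9e-05) and of 1.07 from Zscan4f3A (SE 0.09, adjusted p = 2.2e-04). Pkp1, the plakophilin of stratified epithelia, was the most abundant and stood at 49.01, 49.9 and 49.3 TPM in the control libraries, at 55.1, 53.3 and 58.6 with Zscan4f and at 50.7, 52.8 and 53.8 with Zscan4f3A. Its Zscan4f and Zscan4f3A ranges overlapped, with a difference of 0.17 from control (SE 0.05, adjusted p = 0.039) and of 0.08 from Zscan4f3A (adjusted p = 0.27). The rise of Pkp1 was small. Its call was lost without any 1 of control replicates 1, 2 and 3, Zscan4f replicates 1 and 3 and Zscan4f3A replicate 2 (adjusted p of 0.057 to 0.12). Pkp3 stood at 1.18, 0.1901 and 0.969 TPM in the control libraries, at 2.24, 2.61 and 1.77 with Zscan4f and at 0.855, 0.948 and 0.534 with Zscan4f3A, with control replicate 2 far below the other control libraries. Its difference from control was 0.89 (SE 0.24, adjusted p = 0.033), and the call was lost without any 1 of control replicates 2 and 3 and the 3 Zscan4f libraries (adjusted p of 0.052 to 0.11). Against Zscan4f3A the Pkp3 difference was 0.85 (adjusted p = 0.045), lost without control replicate 3 or any 1 of the 6 libraries compared (0.060 to 0.14). Pkp3 also passed the filter only with the help of the Zscan4f libraries. Neither Pkp1 nor Pkp3 therefore had a rise as steady as that of Pkp2. Pkp4, also known from adherens junctions, stood at 17.3 ± 1.75 TPM in the controls and at 16.6 ± 1.37 with Zscan4f (SD, n = 3 each; limma adjusted p = 0.79), and the 95% interval of the difference was -0.27 to 0.17.

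The plakins periplakin and envoplakin, which also build the cornified envelope of skin, both rose. Ppl stood at 5.47, 5.13 and 5.53 TPM in the control libraries, at 8.03, 7.78 and 7.22 with Zscan4f and at 5.84, 5.32 and 5.79 with Zscan4f3A. Between Zscan4f and the other groups there was no overlap, with a difference of 0.44 from control (SE 0.08, adjusted p = 0.0049) and of 0.38 from Zscan4f3A (SE 0.08, adjusted p = 0.012). Evpl stood at 3.496, 3.097 and 2.99 TPM in the control libraries, at 7.01, 6.73 and 6.91 with Zscan4f and at 4.28, 3.86 and 3.62 with Zscan4f3A. The 3 Zscan4f libraries exceeded the other 6, with a difference of 0.91 from control (SE 0.09, adjusted p = 2.4e-04) and of 0.68 from Zscan4f3A (SE 0.09, adjusted p = 0.0016). Perp, a tetraspan protein of desmosomes and target of p53 and p63, was the most abundant of all 42 members at 223, 228 and 220.2 TPM in the controls, at 236, 241 and 232 with Zscan4f and 233, 231 and 219.9 with Zscan4f3A. Its Zscan4f libraries lay above the control libraries by a small margin, a difference of 0.08 with a 95% interval of 0.00 to 0.16 that was not called (adjusted p = 0.15).

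Of the 15 tight junction, polarity and adhesion genes 10 passed the filter, 6 rose with Zscan4f and 1 fell. Epcam (ENSMUSG00000045394.8, chromosome 17, 87635979 to 87651106), a surface adhesion molecule of epithelia and embryonic stem cells, stood at 0.987, 1.27 and 1.88 TPM in the control libraries, at 5.92, 7.25 and 6.43 with Zscan4f and at 2.16, 2.06 and 2.41 with Zscan4f3A. The lowest Zscan4f library was more than 2 times the highest of the others, with a difference of 1.68 from control (SE 0.15, adjusted p = 1.4e-04) and of 1.23 from Zscan4f3A (SE 0.15, adjusted p = 0.0011). Cxadr (ENSMUSG00000022865.14, chromosome 16, 78301489 to 78359774), the coxsackievirus and adenovirus receptor of epithelial junctions, stood at 43.2, 36.9 and 46.8 TPM in the control libraries, at 71.8, 69.99 and 66.99 with Zscan4f and at 51.1, 45.2 and 45.1 with Zscan4f3A. No library of the other groups reached the Zscan4f libraries, with a difference of 0.71 from control (SE 0.09, adjusted p = 7.6e-04) and of 0.55 from Zscan4f3A (SE 0.09, adjusted p = 0.0036). On GRCm38 9.4% of its exon bases overlap Btg3 on the opposite strand, a gene at up to 57.8 TPM, and the sources used here do not state whether counting used the strand. F11r (ENSMUSG00000038235.4, chromosome 1, 171437535 to 171464603), which encodes the adhesion protein JAM-A, stood at 16.3, 17.5 and 16.5 TPM in the control libraries, at 26.8, 29.3 and 28.03 with Zscan4f and at 18.7, 15.3 and 20.4 with Zscan4f3A. Its Zscan4f libraries were apart from both other groups, with a difference of 0.71 from control (SE 0.10, adjusted p = 0.0013) and of 0.61 from Zscan4f3A (SE 0.10, adjusted p = 0.0037). Cxadr and F11r rose from levels that were already clear in control, and Epcam from close to the filter.

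Cgn (ENSMUSG00000068876.14, chromosome 3, 94760069 to 94786492), which encodes cingulin, a cytoplasmic protein of tight junctions, stood at 1.63, 1.78 and 1.94 TPM in the control libraries, at 4.75, 4.86 and 3.72 with Zscan4f and at 1.88, 1.63 and 2.13 with Zscan4f3A. Here too the Zscan4f libraries were the 3 highest of 9, with a difference of 0.96 from control (SE 0.13, adjusted p = 0.0010) and of 0.91 from Zscan4f3A (SE 0.13, adjusted p = 0.0018). Crb3 (ENSMUSG00000044279.15, chromosome 17, 57059105 to 57065918), the Crumbs protein that sets up the apical domain, stood at 0.331, 0.8697 and 0.332 TPM in the control libraries, at 2.05, 2.63 and 1.95 with Zscan4f and at 0.469, 0.441 and 0.515 with Zscan4f3A. It was under 1 TPM in all control and Zscan4f3A libraries and near or above 2 with Zscan4f, with a difference of 1.10 from control (SE 0.17, adjusted p = 0.0026) and of 1.12 from Zscan4f3A (SE 0.17, adjusted p = 0.0030). Crb3, like Tjp3 below, passed the filter only with the help of the Zscan4f libraries. Among the ZO scaffolds, Tjp1 (ZO-1) stood at 87.1 ± 1.44 TPM in the controls, 86.8 ± 1.91 with Zscan4f and 84.7 ± 2.07 with Zscan4f3A (SD, n = 3 each), and the 95% limma interval of the Zscan4f difference from control was narrow, -0.09 to 0.08. Tjp3 (ZO-3) stood at 0.646, 0.2505 and 0.347 TPM in the control libraries, at 1.34, 1.28 and 1.13 with Zscan4f and at 0.614, 0.515 and 1.504 with Zscan4f3A. Its Zscan4f libraries lay above all control libraries but Zscan4f3A replicate 3 was the highest of all, and its difference from control of 0.68 was not called (adjusted p = 0.058), though it was called without Zscan4f3A replicate 3. Neither ZO scaffold of the set was therefore called.

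The claudins, the pore and barrier proteins of the tight junction, moved in different directions. Cldn1 (ENSMUSG00000022512.3, chromosome 16, 26356642 to 26371841), a barrier claudin of the epidermis, was the 1 member that fell: it stood at 9.99, 10.7 and 10.9 TPM in the control libraries, at 3.95, 4.599 and 4.69 with Zscan4f and at 9.403, 8.77 and 8.202 with Zscan4f3A. The highest Zscan4f library lay far below the lowest of the other 6, and the difference was -1.09 from control (SE 0.09, adjusted p = 7.8e-05) and -0.86 from Zscan4f3A (SE 0.09, adjusted p = 4.3e-04). Cldn4 (ENSMUSG00000047501.3, chromosome 5, 134945119 to 134946934) rose: it stood at 0.436, 0.538 and 0.0639 TPM in the control libraries, at 1.53, 2.31 and 2.39 with Zscan4f and at 0.365, 0.506 and 0.557 with Zscan4f3A. Each Zscan4f library was above all 6 others, with a difference of 1.20 from control (SE 0.19, adjusted p = 0.0028) and of 1.05 from Zscan4f3A (SE 0.19, adjusted p = 0.0068). Cldn4 passed the filter only through the Zscan4f libraries. Cldn3 (ENSMUSG00000070473.4, chromosome 5, 134986214 to 134987472), which lies 39.3 kilobases from Cldn4 and is transcribed from the other strand, stood at 12.6, 12.9 and 12.03 TPM in the controls, at 12.1, 13.6 and 12.2 with Zscan4f and 11.1, 12.2 and 12.7 with Zscan4f3A. The groups of Cldn3 overlapped and its difference from control was 0.01 (95% interval -0.16 to 0.18, adjusted p = 0.95). Whether the 2 neighbours differed in response was not tested. Cldn1 started from a higher level than Cldn4 reached. The sum of the 5 claudins was 23.7 ± 0.684 TPM in the controls, 19.6 ± 1.52 with Zscan4f and 21.5 ± 0.372 with Zscan4f3A.

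Of the 4 proteases and inhibitors St14, Spint2 and Spint1 rose with Zscan4f, and Spint1 passed the filter only through the Zscan4f libraries. St14 (ENSMUSG00000031995.9, chromosome 9, 31089402 to 31131853), which encodes matriptase, stood at 4.07, 4.77 and 4.24 TPM in the control libraries, at 10.7, 11.5 and 11.2 with Zscan4f and at 4.799, 5.35 and 4.14 with Zscan4f3A. Between Zscan4f and the other groups there was no overlap, with a difference of 1.18 from control (SE 0.10, adjusted p = 1.1e-04) and of 1.08 from Zscan4f3A (SE 0.10, adjusted p = 2.7e-04). Spint2 (ENSMUSG00000074227.12, chromosome 7, 29256323 to 29281912), which encodes the inhibitor HAI-2, stood at 18.9, 23.03 and 19.3 TPM in the control libraries, at 36.04, 37.2 and 40.5 with Zscan4f and at 21.1, 18.99 and 21.3 with Zscan4f3A. The 3 Zscan4f libraries exceeded the other 6, with a difference of 0.86 from control (SE 0.09, adjusted p = 2.6e-04) and of 0.86 from Zscan4f3A (SE 0.09, adjusted p = 4.3e-04). The Zscan4f libraries of both genes lay above every other library by more than the spread within any group. Spint1 (ENSMUSG00000027315.13, chromosome 2, 119237362 to 119249527), which encodes HAI-1, was much lower and stood at 0.462, 0.0398 and 0.233 TPM in the control libraries, at 1.08, 1.48 and 1.31 with Zscan4f and at 0.551, 0.224 and 0.435 with Zscan4f3A. Its difference was 0.89 from control (SE 0.18, adjusted p = 0.0087) and 0.71 from Zscan4f3A (adjusted p = 0.029). The second call was lost without any 1 of the 3 Zscan4f libraries and Zscan4f3A replicates 2 and 3 (adjusted p of 0.053 to 0.096). Prss8, which encodes prostasin, the protease that works with matriptase in skin, stayed at or below 0.363 TPM, and 6.6% of its exon bases overlap the expressed gene Kat8. Spint2 RNA thus exceeded St14 RNA in each of the 9 libraries.

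Among the 10 regulators and trafficking genes 4 passed the filter and 2 rose, of which Elf3 passed only through the Zscan4f libraries. Elf3 (ENSMUSG00000003051.13, chromosome 1, 135253575 to 135258568), an epithelial factor of the ETS family, stood at 0.236, 0.133 and 0.387 TPM in the control libraries, at 2.22, 1.82 and 2.22 with Zscan4f and at 0.157, 0.517 and 0.402 with Zscan4f3A. It was under 1 TPM in the control and Zscan4f3A libraries and above it in all Zscan4f libraries, with a difference of 1.31 from control (SE 0.16, adjusted p = 6.7e-04) and of 1.19 from Zscan4f3A (SE 0.16, adjusted p = 0.0016). On the opposite strand Gm26642, a gene with no listed level, overlaps 7.3% of the exon bases of Elf3. Grhl3 (ENSMUSG00000037188.7, chromosome 4, 135541888 to 135573630), the grainyhead-like factor of epidermal barrier formation, stood at 9.21, 8.597 and 11.04 TPM in the control libraries, at 16.1, 17.3 and 15.4 with Zscan4f and at 11.3, 11.1 and 10.6 with Zscan4f3A. No library of the other groups reached the Zscan4f libraries, with a difference of 0.70 from control (SE 0.09, adjusted p = 0.0011) and of 0.52 from Zscan4f3A (SE 0.09, adjusted p = 0.0065). It was the most abundant regulator of the set in each group. Its relatives stayed low: Grhl1 was at 1.39, 1.36 and 1.43 TPM in the controls, at 1.05, 1.24 and 1.203 with Zscan4f and 1.003, 1.07 and 1.04 with Zscan4f3A, lower than control in each of the 6 other libraries but not called (adjusted p = 0.42 and 0.58). Grhl2, the grainyhead-like factor best known as a driver of Cdh1 and Epcam, reached 0.454 TPM at most. Esrp2, a splicing factor, stood at 1.298 ± 0.175 TPM in the controls and at 1.63 ± 0.3905 with Zscan4f (SD, n = 3 each; limma adjusted p = 0.48), and 5% of its exon bases overlap the expressed gene Nfatc3.

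In all, 11 members stayed under 1 TPM in every library: Dsc3, Ocln, Cldn6, Cldn7, Marveld2, Prss8, Esrp1, Ovol1, Grhl2, Rab25 and Ap1m2. Ocln, which encodes occludin, reached 0.281 TPM at most and Marveld2, which encodes tricellulin, 0.335. Cldn6 was listed at 0 in 8 libraries and at 0.2196 in the other, and Ap1m2, the epithelial subunit of the AP-1 sorting adaptor, was listed at 0 in all 3 control libraries and at 0.0351 to 0.109 TPM with Zscan4f. Rab25, a GTPase of apical recycling, ranged from 0 to 0.732 TPM, with overlap of control and Zscan4f, and Cldn7 from 0 to 0.566.

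Some of these low genes still differed by group. Ovol1, a zinc finger repressor of mesenchymal genes, ranged from 0.317 to 0.421 TPM in control, 0.742 to 0.912 with Zscan4f and 0.381 to 0.574 with Zscan4f3A. Grhl2 ranged over 0.000625 to 0.123, 0.284 to 0.454 and 0.0682 to 0.152 TPM in the same order, and the splicing factor Esrp1 over 0 to 0.128, 0.202 to 0.309 and 0 to 0.0285. Without a filter these 3 were called against control by limma, with adjusted p of 0.020, 0.017 and 0.048, and they were not tested with the filter. In that fit 3.42% of 33314 genes were called higher. Against Zscan4f3A Grhl2 and Esrp1 were called without a filter (limma adjusted p = 0.033 and 0.018) and Ovol1 was not (0.078). Lsr, the angulin of 3-cell contacts, reached 1 TPM in 2 Zscan4f libraries (1.06, 0.814 and 1.14) and stood at 0.545, 0.625 and 0.341 in control. On GRCm38 43.6% of the exon bases of Lsr overlap Gm4673 and 19.8% of those of Ovol1 overlap Gm31166, both on the opposite strand. Neither overlapping gene has a listed level. Trp63, which encodes p63, reached 1 TPM in 1 control and 1 Zscan4f library and ranged over 0.609 to 1.02 TPM in control and 0.706 to 1.46 with Zscan4f, so the groups overlapped. The files hold no counts, so how many fragments lie behind such values is unknown.

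**Figure D3:**
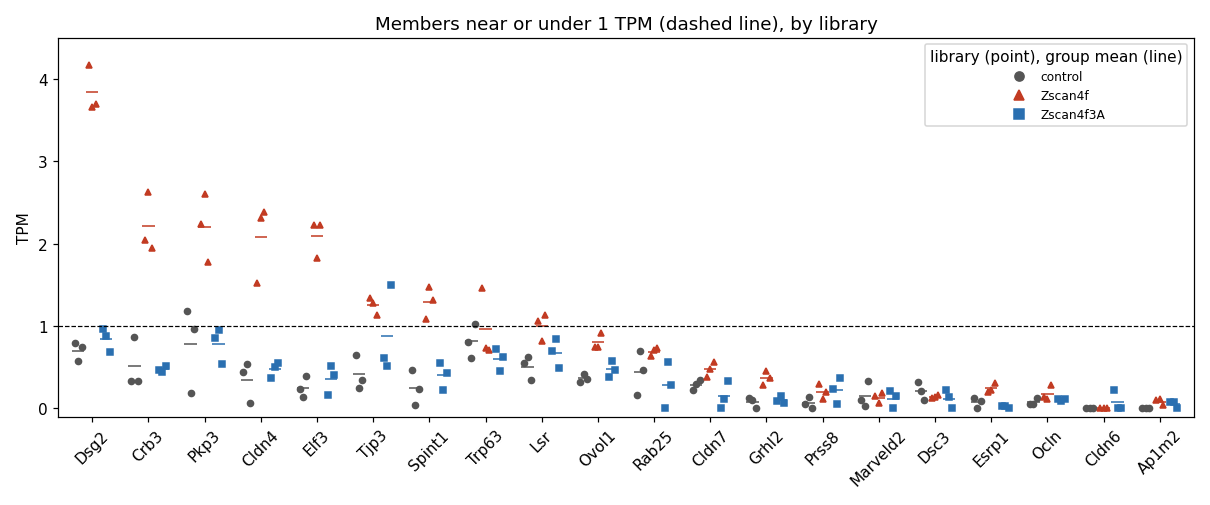
TPM of the 20 members that failed the filter or passed it only with the Zscan4f libraries, in each library; points are libraries, short lines group means, and the dashed line marks 1 TPM. Dsg2, Crb3, Pkp3, Cldn4, Elf3, Spint1 and Tjp3 exceed 1 TPM in all 3 Zscan4f libraries, while the genes from Ovol1 rightwards stay under it in all 9.

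With Zscan4f3A overexpression 0 of the 29 members tested were called against control by limma, where 0.0316% of all genes were called, and 3 had an unadjusted p under 0.05 against 8.77% of all genes. The smallest adjusted p among the members was 0.48. The 3 were Epcam, Evpl and Cldn1. Epcam differed from control by 0.45 (95% interval 0.11 to 0.79, adjusted p = 0.48), Evpl by 0.23 (0.02 to 0.44, 0.53) and Cldn1 by -0.24 (-0.44 to -0.04, 0.51). For Epcam all 3 Zscan4f3A libraries lay above the highest control library, and for Cldn1 all 3 lay below the lowest. Libraries of the 2 groups did not overlap for 4 members in the upward direction (Dsp, Pkp1, Evpl and Epcam) and 2 in the downward direction (Cldn1 and Grhl1), where 4.16% and 5.92% of 33314 genes did so. For Dsp the 95% interval of the Zscan4f3A difference from control was -0.02 to 0.19 and for Dsg2 -0.16 to 0.39, and for Jup -0.03 to 0.19, St14 -0.12 to 0.33 and Grhl3 -0.03 to 0.39. These intervals do not show that the Zscan4f3A and control cultures were alike, but bound how far they differed.

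Set against Zscan4f3A instead of control, the Zscan4f libraries had 20 members higher and 1, Cldn1, lower, where 7.48% and 7.64% of all genes were called. The 21 were the genes called against control without Pkp1. Without a filter 21 were higher and 1 lower (2.78% and 2.8% of 33314 genes). With the filter on the 6 control and Zscan4f3A libraries it was 14 and 1 (7.39% and 7.91% of all genes). Libraries did not overlap for 26 members upward and 1 downward (10.5% and 9.56%). Both comparisons use the same Zscan4f libraries, so they are not independent of each other. Without Zscan4f3A replicate 3, the library of lowest depth, 19 members were called against Zscan4f3A, with Pkp3 and Spint1 lost, and 0 between Zscan4f3A and control. Dsg2, Dsg3, Epcam, Elf3, Crb3, Pkp2, St14 and Cldn4 had the 8 largest differences between the 2 overexpressed forms, from 1.05 for Cldn4 to 1.40 for Dsg2. Of these, Dsg2, Elf3, Crb3 and Cldn4 passed the filter only through the Zscan4f libraries. As for levels, Zscan4f RNA was 564 ± 6.18 TPM in the Zscan4f libraries and 772 ± 102 in the Zscan4f3A libraries (SD, n = 3 each), without overlap, and its part in the differences was not tested.

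**Figure D4:**
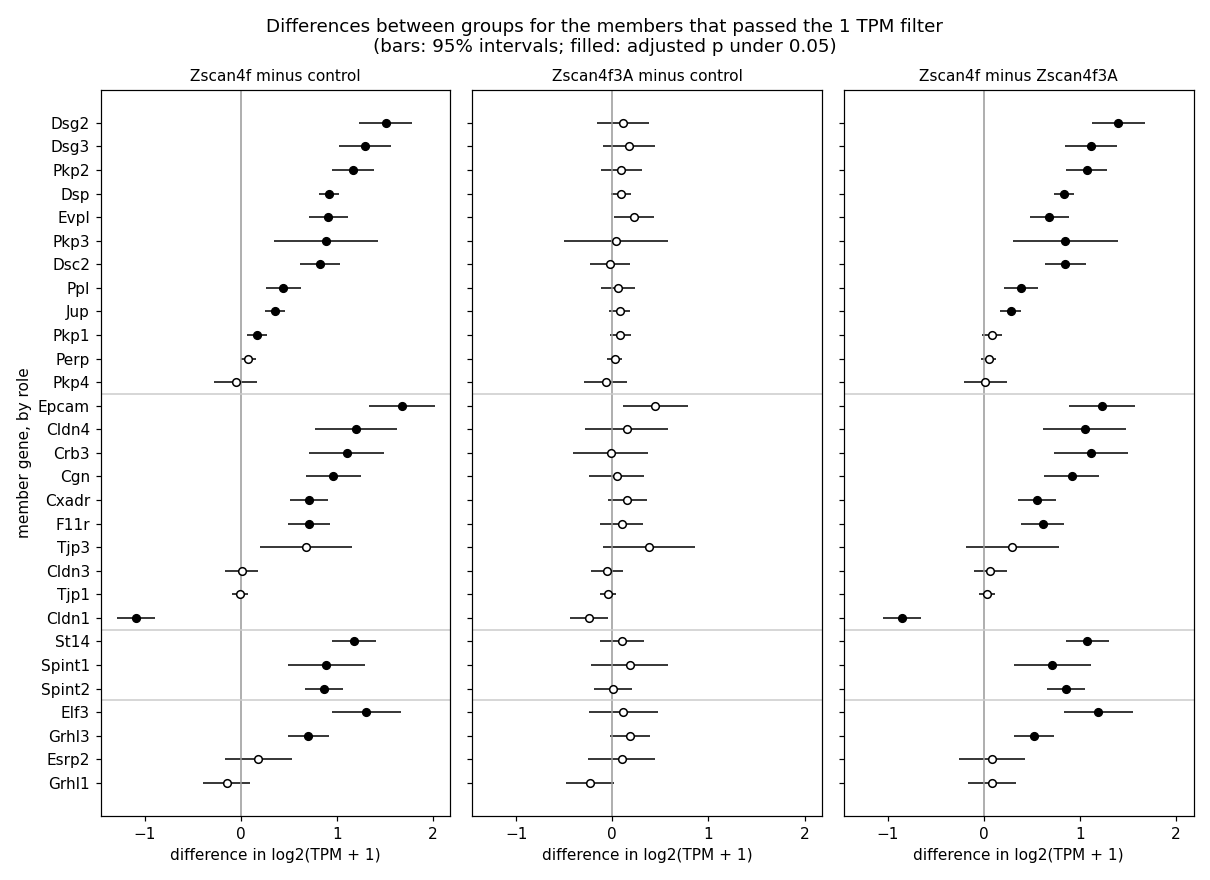
Differences in log2(TPM + 1) of the 29 members tested, by role, for Zscan4f minus control, Zscan4f3A minus control and Zscan4f minus Zscan4f3A; bars are 95% intervals of the limma fit and filled points have an adjusted p under 0.05. The left panel holds 22 filled points, the middle panel 0 and the right panel 21.

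The wider epithelial machinery, read from lists of 117 names that hold none of the 42 members, was set beside them. Of the 108 found in the files 65 passed the filter, and with Zscan4f 17 rose and 6 fell, where 8.74% and 9.71% of all genes did. With Zscan4f3A 0 of the 65 were called against control. Hemidesmosome genes, whose products anchor epithelia to the basement membrane, had 4 of 8 tested higher and 0 lower. Itgb4, the beta 4 integrin, stood at 68.5, 69.8 and 64.9 TPM in the control libraries, at 144, 141 and 150.4 with Zscan4f and at 76.5, 75.1 and 75.99 with Zscan4f3A. Its Zscan4f libraries were apart from both other groups, with a difference of 1.09 from control (SE 0.04, adjusted p = 1.4e-06) and of 0.93 from Zscan4f3A (SE 0.04, adjusted p = 5.7e-06). Lama3, a chain of laminin 332, rose from 10.9 ± 0.692 to 18.2 ± 1.06 TPM, and the tetraspanin Cd151 from 194 ± 10.5 to 249.8 ± 10.7 (SD, n = 3 each; limma adjusted p = 4.9e-04 and 0.0014). Itga6, the partner of Itgb4, stood at 48.8, 47.1 and 68.8 TPM in the control libraries, at 122, 112 and 80.1 with Zscan4f and at 70.7, 49.2 and 45.4 with Zscan4f3A (difference from control 0.92, adjusted p = 0.020). Its libraries varied more within groups, and the call was lost without control replicate 1 or 2 or Zscan4f replicate 1 or 2 (adjusted p of 0.069 to 0.072). Col17a1 stayed at or below 0.247 TPM.

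At adherens junctions 2 of 10 genes tested rose and 0 fell, where 8.74% and 9.71% of all genes did. Cdh1, which encodes E-cadherin, stood at 14.2, 14.2 and 13.8 TPM in the control libraries, at 21.7, 23.5 and 21.1 with Zscan4f and at 14.3, 15.1 and 15.7 with Zscan4f3A. Here too the Zscan4f libraries were the 3 highest of 9, with a difference of 0.61 from control (SE 0.06, adjusted p = 2.8e-04) and of 0.53 from Zscan4f3A (SE 0.06, adjusted p = 9.6e-04). Ctnnd1, which encodes p120-catenin, rose from 234 ± 6.61 to 263 ± 7.77 TPM (limma adjusted p = 0.014; n = 3 each), a call lost without control replicate 1 or Zscan4f replicate 1 (0.051 to 0.052). The further tight junction genes went both ways, with 4 of 13 higher and 3 lower. Marveld3, a relative of occludin, stood at 0.352, 0.903 and 0.413 TPM in the control libraries, at 2.63, 2.12 and 2.85 with Zscan4f and at 1.17, 1.48 and 1.15 with Zscan4f3A (difference from control 1.20, adjusted p = 0.0015). Cgnl1, which encodes paracingulin, fell from 71.1 ± 3.37 to 47.9 ± 0.725 TPM, opposite in direction to its relative Cgn, Magi2 from 8.14 ± 0.272 to 3.31 ± 0.368 and Magi3 from 30.3 ± 1.14 to 21.7 ± 0.778 (limma adjusted p = 3.1e-04, 4.4e-04 and 4.4e-04). Magi proteins are scaffolds of cell junctions.

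Polarity complexes had 2 of 12 genes higher and 1 lower, against 8.74% and 9.71% of all genes. Llgl2, an apico-basal polarity protein, rose from 5.65 ± 0.528 to 8.39 ± 0.814 TPM (adjusted p = 0.012 by limma). Inadl, which encodes PATJ, had adjusted p = 0.034 upward and Prkci, an atypical protein kinase C, 0.028 downward. Calls were lost for Inadl without any 1 of control replicates 1 and 3, the 3 Zscan4f libraries and Zscan4f3A replicate 2 (adjusted p of 0.051 to 0.11), and for Prkci without any 1 of the 3 control libraries and Zscan4f replicates 2 and 3 (0.052 to 0.093). Among further membrane proteases and inhibitors 1 of 3 tested rose, Tmprss11d, an airway trypsin-like protease that passed the filter only through the Zscan4f libraries, from 0.634 ± 0.0548 to 1.81 ± 0.147 TPM (limma adjusted p = 0.010). Of the 2 genes of that list that also passed on the other 6 libraries, 0 were called by limma and 1 had an unadjusted p under 0.05. In the trafficking list 2 of 7 rose and 1 fell, against the same shares of all genes. Sytl1, a synaptotagmin-like protein, fell from 16.7 ± 0.587 to 11.8 ± 0.418 TPM (adjusted p = 0.0036), and Rab11fip1 and Ap1s1 had adjusted p = 0.015 and 0.036 upward. The last 2 calls were each lost without single libraries: Rab11fip1 without control replicate 1 or 2 or Zscan4f replicate 3 (0.055 to 0.059), and Ap1s1 without any 1 of the 3 control libraries, Zscan4f replicates 2 and 3 and Zscan4f3A replicate 2 (0.053 to 0.12).

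Of the 7 repressors of epithelial genes 6 passed the filter, 0 rose and 1 fell, where 8.74% and 9.71% of all genes did. Twist1 fell from 108 ± 1.79 to 91.04 ± 3.55 TPM, a difference of -0.25 (SE 0.05, limma adjusted p = 0.0069), and it was not called against Zscan4f3A (adjusted p = 0.090). Snai1 stood at 24.1, 23.1 and 22.9 TPM in the controls and at 22.3, 21.8 and 22.1 with Zscan4f (adjusted p = 0.38), and Snai2 at 14.9, 14.3 and 14.9 and 12.4, 12.4 and 13.3 (adjusted p = 0.052). For both Snai genes the Zscan4f libraries lay below all control libraries, as they did for 11.2% of 33314 genes, and neither gene was called. Zeb1 stood at 38.9, 59.3 and 60.2 TPM in the controls and at 33.4, 49.6 and 49.8 with Zscan4f, and Zeb2 at 41.4, 27.1 and 49.9 and 27.95, 41.7 and 45.4. The spread of the 2 Zeb genes within a group was so wide that the 95% intervals of their differences ran over -0.79 to 0.30 and -0.63 to 0.57.

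Markers of cell types moved beside these genes as follows. All 10 fibroblast markers were expressed, with a summed level of 13587 to 13615 TPM in the controls, 13664 to 13863 with Zscan4f and 13488 to 13828 with Zscan4f3A. With Zscan4f 3 rose (Col1a2, Dcn and Pdgfra) and 5 fell (Col1a1, Col3a1, Pdgfrb, Vim and Fn1), where 8.74% and 9.71% of all genes did. The sum hides these moves. From control to Zscan4f the mean of Col1a2 went from 4260 to 5050 TPM and that of Dcn from 1236 to 1756. Col1a1 went from 2759 to 2449, Vim from 2418 to 2041 and Fn1 from 1965 to 1575. The call was lost for Col3a1 without control replicate 2 or Zscan4f replicate 3, and for Vim without Zscan4f replicate 1 or 3. The summed level of 8 markers of simple epithelia was 52.1 to 55.6, 120.1 to 127 and 55.4 to 58.2 TPM in control, Zscan4f and Zscan4f3A libraries, the order kept below. It was led by Krt8 at 20.2 ± 1.201 and 78.5 ± 1.88 TPM in control and Zscan4f libraries, with 3 of 6 tested higher. The 10 keratinocyte markers summed to 89.05 to 107, 135 to 153 and 88.9 to 109 TPM, with Krt14 higher (26.99, 29.5 and 28.8 TPM in control, 82.6, 83.4 and 89.98 with Zscan4f) and Krt1 and Krt5 lower. The rise of the sum came from Krt14. Without a filter 3 of the 10 had a positive and 7 a negative difference from control with Zscan4f, with a median of -0.16. Krt5, the pairing partner of Krt14 in basal keratinocytes, did not pass 1.41 TPM in any library, and its call was lost without any 1 of the 3 control libraries and Zscan4f replicates 1 and 2 (adjusted p of 0.053 to 0.087). Of 6 mesothelial markers 1 rose (Msln) and 1 fell (Upk1b), the summed levels were 39.8 to 45.3, 45.2 to 46.3 and 43.6 to 47.6 TPM, and Wt1 stayed at or below 0.279. Of 6 endothelial markers 5, and of 7 macrophage markers 6, stayed under 1 TPM. The exceptions, Tek at 30.9 ± 1.23 and 45 ± 0.601 TPM in control and Zscan4f libraries and Cd68 at 12 ± 0.967 and 18.7 ± 1.39, both rose. Summed endothelial levels were 30.1 to 32.7, 45.7 to 46.9 and 31.7 to 33.3 TPM and macrophage levels 12.04 to 14.5, 18.04 to 21.2 and 12.5 to 14.4, with Cldn5 listed at 0 throughout. The 6 pluripotency markers summed to 0.432 to 0.491, 0.993 to 2.07 and 0.288 to 0.525 TPM, with Dppa5a and Tdgf1 listed at 0. Most of this sum with Zscan4f was Nanog, which failed the filter and stood at 0.311, 0.3998 and 0.421 TPM in the controls and at 1.01, 0.759 and 1.96 with Zscan4f, without overlap. Whether a change in the share of epithelial or other cells had a part in the rises was not tested.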

How the data were processed

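HISAT2 2.1.0 and StringTie were run by the authors, per the submitters' processing notes, with no build, annotation or StringTie version stated there. The deposited TPM are corrected for transcript length and brought to a common library sum, the deposited FPKM are scaled by the fragments of the library, and the deposited coverage is mean read depth without correction for depth, per the file headers. Of the gene IDs 54165 were found in GENCODE annotation of GRCm38, 97.7% of them with identical coordinates, so coordinates are the files' own, read as GRCm38. Entries of the same gene ID (15 IDs) were summed, and none of 36 library pairs were identical (0). Depth was estimated as the commonest ratio of coverage to FPKM. The 15837 genes that reached 1 TPM in 3 or more of the 9 libraries were fitted on log2(TPM + 1) with limma 3.58.1 in R 4.3.3 (group means, empirical Bayes with trend), two-sided, with Benjamini-Hochberg adjustment over all genes of a comparison. The code was tested on simulated data, and figures were drawn with matplotlib 3.10.9. The 42 members and all gene lists were chosen with earlier results of these data known. Every member called in a comparison is given by library; of each further list up to 4 called genes with the smallest p are named, and Cdh1; the list of further epithelial regulators is not reported here. The alternatives tried were FPKM, a pseudocount of 0.1, a filter at 5 TPM and none, median-of-ratios scaling, 2-group fits, no trend, a robust fit, the replicate number as a block, leaving out each library and, chosen after the data were seen, a filter on the 6 control and Zscan4f3A libraries. Without counts no counting interval can be given, and precision is the spread of 3 libraries. Promoters come from RefSeq (GRCm38.p6), and motifs were searched in the 250 bases before each start on both strands.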

Additional observations from a re-analysis of the deposited data

How the results depend on the processing

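Against control, the count of 22 members called with Zscan4f stayed between 15 (filter at 5 TPM, which tests fewer members) and 24 (no filter) over all alternatives run, and 20 of the 22 calls held in each alternative in which the gene was tested; Pkp1 and Pkp3 did not. For Zscan4f against Zscan4f3A the range was 14 to 22 of a count of 21, and 19 calls held, without Pkp3 and Spint1. No member called changed sign in any alternative run, and 0 members were called for Zscan4f3A against control in each. With 1 library left out, the 3 counts of members were 20 to 23, 0 to 0 and 19 to 21. These fits and the 2-group fits kept the filter set on all 9 libraries. Genes that passed it only through the Zscan4f libraries thus stayed in the test when a Zscan4f library was left out. Counts with the filter set anew were not computed. Over all genes, the 5 calls for Zscan4f3A against control became 3 without a filter, 1 with the replicate block and 1 to 16 with 1 library left out, the extremes being control replicate 3 and Zscan4f3A replicate 3; without control replicates 1 and 2 and Zscan4f replicate 3 they were 8, 9 and 10. Those for Zscan4f against Zscan4f3A were 1574 to 2168 of 2395 with 1 library left out, lowest without Zscan4f replicate 3. The causes of these shifts were not tested. Titles share the numbers 1 to 3 across groups but nothing says that they pair libraries: deviations of same-numbered libraries correlated at -0.08 to 0.05, and 9 of 18 correlated best with their own number. With the replicate block 20, 0 and 19 members were called.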
